A study of Mus musculus with 7 samples.

Results

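The genes described here are the ligand gene Bmp4 and 7 genes known to respond to BMP signals, namely Id1, Id2, Id3, Smad6, Smad7, Msx1 and Msx2. They were chosen by name as a set and found by NCBI gene number (12159, 15901, 15902, 15903, 17130, 17131, 17701 and 17702, in that order), which matched all 8 among the 24990 features of the tables. The data were 3′ RNA-seq libraries, 7 in all, of mouse embryoid bodies on day 4. Embryoid bodies are aggregates in which embryonic stem cells, here of the R1 line, differentiate once the cytokine LIF is withdrawn. Every library came from this line, depleted of feeder cells and differentiated alike, and the perturbations were aimed at Meteor, which encodes a long non-coding RNA and was studied for its part in setting Eomes levels.

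By title, WT1 and WT2 were wild type, pKO1 and pKO2 had lost the Meteor promoter, and pInv, a single library, carried that promoter inverted. Ctrl, also single, carried an empty vector, and KD, single too, was a CRISPR knockdown of Meteor, named with Cas9 in the design text and with dCas9 in the sample field. The genotype field goes against the titles of 5 libraries: it calls WT1 and WT2 promoter knockout, pKO1 promoter inversion, and pKO2 and pInv wild type. Groups follow the titles here, and each direction below rests on that choice, since the RNA of Meteor itself, which would check the titles, was matched to no feature by name and was not analysed here. The labels do not say whether an edited line was 1 clone, nor whether WT1 and WT2, or pKO1 and pKO2, were grown apart. The p-values therefore reflect no more than the spread between the libraries at hand, which may be technical.

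Bone morphogenetic proteins are secreted ligands that bind paired type I and type II receptor kinases. The receptors phosphorylate SMAD1, SMAD5 and SMAD9, which join SMAD4 and switch on target genes in the nucleus. In the gastrulating mouse embryo BMP4 from extraembryonic tissue acts on the epiblast and the primitive streak, where high signal favours posterior and extraembryonic mesoderm. The ID proteins lack a basic DNA-binding region and hold E proteins away from DNA, SMAD6 and SMAD7 are feedback inhibitors, and MSX1 and MSX2 are homeodomain repressors.

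The promoter windows of Id2, Id3 and Smad6 are printed because they are the members in whose window a searched SMAD-type motif was found, and because the levels of Id2 and Id3 fall in different orders below. Each window runs from 250 bases before to 50 bases after the annotated start, as listed by RefSeq on GRCm38.p6, a later build than the mm9 of the files, and is read along the gene's own strand. The windows of 6 members were searched, and those of Id1 and Smad7 were not used here. Capitals mark the motifs, searched on both strands: GTCTAGAC, the palindromic SMAD-binding element, GGCGCC, a GC-rich element of BMP-regulated SMADs, and GTCTG, whose reverse complement is CAGAC. The longer form TGGCGCC, which contains GGCGCC, was searched too and was found in no member's window.
Id2, chr12:25096043-25096342, minus strand: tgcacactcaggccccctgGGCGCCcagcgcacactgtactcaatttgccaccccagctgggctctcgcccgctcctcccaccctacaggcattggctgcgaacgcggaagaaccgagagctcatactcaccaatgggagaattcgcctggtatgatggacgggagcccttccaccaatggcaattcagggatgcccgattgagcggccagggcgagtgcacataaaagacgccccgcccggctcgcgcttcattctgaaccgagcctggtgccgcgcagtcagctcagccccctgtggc
Id3, chr4:136143572-136143871, plus strand: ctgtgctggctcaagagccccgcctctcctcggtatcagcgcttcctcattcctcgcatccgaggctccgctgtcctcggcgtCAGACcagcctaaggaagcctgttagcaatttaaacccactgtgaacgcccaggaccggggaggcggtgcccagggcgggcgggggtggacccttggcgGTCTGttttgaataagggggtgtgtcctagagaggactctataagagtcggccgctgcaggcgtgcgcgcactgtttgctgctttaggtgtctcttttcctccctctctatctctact
Smad6, chr9:64022010-64022309, minus strand: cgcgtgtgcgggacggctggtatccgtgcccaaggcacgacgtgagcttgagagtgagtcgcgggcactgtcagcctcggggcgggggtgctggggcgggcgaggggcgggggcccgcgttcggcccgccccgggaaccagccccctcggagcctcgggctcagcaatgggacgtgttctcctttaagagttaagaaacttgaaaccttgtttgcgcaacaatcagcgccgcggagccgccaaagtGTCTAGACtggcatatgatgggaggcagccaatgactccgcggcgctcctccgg
Counted from the start, with no position 0, the Smad6 element GTCTAGAC lay at -4 to 4. Of 32851 RefSeq windows of the same length, 0.213% held it. The Id2 element GGCGCC lay at -231 to -226, a motif held by 11.9% of windows. Id3 had GTCTG at -68 to -64 and its reverse complement at -167 to -163, and 49.6% of windows held that motif on either strand. TGGCGCC was in 4.03% of them. The windows of Bmp4, Msx1 and Msx2 held none of the 4 motifs, which says only that these letters are not in those windows. A match is a description of sequence and not a bound site.

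Library totals ran from 1898350 to 2564478 expected counts, of which 12.9% to 24.1% fell on the precursor of ribosomal RNA. Gene levels are in CPM, that is, counts per megacount of a library after TMM scaling, not corrected for gene length. A single count stood for 0.375 CPM in WT1 and 0.6 CPM in WT2. Where no count fell on a gene, 3 counts were taken as its upper limit, 1.12 CPM in WT1 and 1.8 CPM in WT2, and limits and intervals cover counting error only. Libraries of the same group differed by more than counting error. Their chi-square per degree of freedom was 18.3 for WT1 and WT2 and 7.06 for pKO1 and pKO2. The intervals therefore understate the spread between libraries. Primitive streak markers were present in every library (6 genes, summed level 483 CPM in WT2 and 820 to 1110 CPM elsewhere), as were those of the pluripotent epiblast (6 genes, 1400 to 2610 CPM). Feeder fibroblast markers summed to 2.03 to 7.2 CPM. In bulk RNA, fewer cells of a type and less RNA per cell cannot be told apart.

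Of the 8 genes, 5 passed the filter on low counts and were tested, Id1, Id2, Id3, Smad7 and Msx1, and 3 did not, Bmp4, Smad6 and Msx2. Bmp4, the ligand, was barely read. WT1 had 2 counts, WT2 1, pKO1 3, pKO2 2, pInv 1, Ctrl 1 and KD 0, or 10 counts in all. No library stood above the 3 counts taken as the floor, so a difference in Bmp4 was not detectable at this depth. The related ligand genes Bmp2 and Bmp7 were better read. For Bmp2, WT1 had 9.37 CPM, WT2 0.6, pKO1 4.3, pKO2 9.03, pInv 2.55, Ctrl 6.6 and KD 11.1. Bmp7 stood at 16.5 and 3.6 CPM in WT, 6.69 and 14 in pKO, 4.67 in pInv, 10.7 in Ctrl and 13.4 in KD. Both were lowest in WT2. Bmp5, Bmp10 and Gdf2 had 0 counts in every library.

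**Figure D1:**
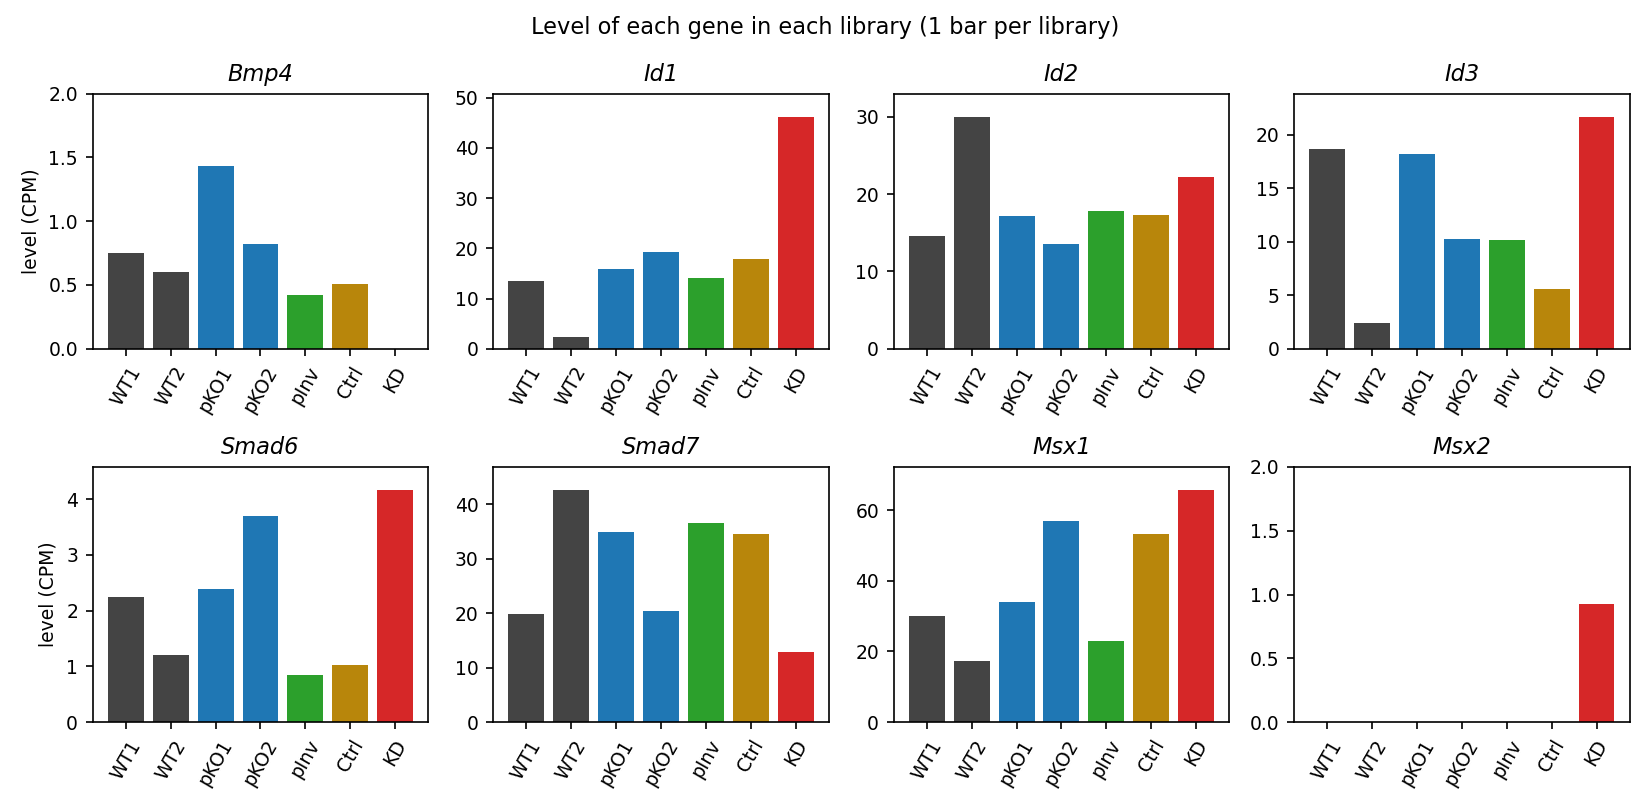
Level of each of the 8 genes in CPM (vertical axis, own scale per gene) in each of the 7 libraries (1 bar per library, coloured by group; no error bar, since each bar is 1 library). Id1, Id3 and Msx1 were lowest in WT2 (2.4, 2.4 and 17.4 CPM) and highest in KD (46.2, 21.7 and 65.6 CPM), and Smad7 was lowest in KD (12.9 CPM).

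Id1 was low in WT2, high in KD and even across the other libraries. WT1 had 13.5 CPM, WT2 2.4, pKO1 15.8, pKO2 19.3, pInv 14, Ctrl 17.8 and KD 46.2. The order from high to low was KD, pKO2, Ctrl, pKO1, pInv, WT1 and WT2. Between neighbours in that order, exact 95% counting intervals of the ratio left out 1 at both ends, KD to pKO2 (2.39, interval 1.68 to 3.46) and WT1 to WT2 (5.62, 2.01 to 21.7), and held 1 for the other 4 steps. The WT libraries thus lay further apart than the pKO libraries, whose ratio was 0.817 (0.507 to 1.3, pKO1 to pKO2).

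Id3 shared both ends with Id1 but spread more widely between them. WT1 had 18.7 CPM, WT2 2.4, pKO1 18.2, pKO2 10.3, pInv 10.2, Ctrl 5.58 and KD 21.7. KD, WT1 and pKO1 were highest and Ctrl and WT2 lowest, though the steps from pInv to Ctrl (1.82, counting interval 0.86 to 4.12) and from Ctrl to WT2 (2.33, 0.689 to 10) were within counting error. WT1 exceeded WT2 by a ratio of 7.81 (counting interval 2.87 to 29.8), on 50 and 4 counts. The pKO libraries also parted, pKO1 to pKO2 by 1.77 (1.04 to 3.06). KD did not exceed WT1 beyond counting error (1.16, 0.761 to 1.76).

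Id2 did not share that order. WT1 had 14.6 CPM, WT2 30, pKO1 17.2, pKO2 13.5, pInv 17.8, Ctrl 17.3 and KD 22.2. WT2 was the highest library and WT1 among the lowest, with a WT1 to WT2 ratio of 0.487 (counting interval 0.312 to 0.755). No neighbouring libraries in its order differed beyond counting error. Its whole range was 2.22-fold, against 19.2-fold for Id1 and 9.04-fold for Id3.

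Msx1, which marks posterior mesoderm and later limb and neural crest, was the best-read of the responding genes, with 620 counts over the 7 libraries. WT1 had 30 CPM, WT2 17.4, pKO1 33.9, pKO2 57, pInv 22.9, Ctrl 53.3 and KD 65.6. KD, pKO2 and Ctrl read highest, and the step from Ctrl down to pKO1 was 1.57 (counting interval 1.15 to 2.15). That step was picked after the values were sorted, and it parts pKO2 from pKO1, so it does not establish separate sets of libraries. Its relative Msx2 had 2 counts in KD and 0 in the other 6 libraries.

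Of the inhibitory SMAD genes, Smad7 was well read and Smad6 was not. For Smad7, which also dampens NODAL and TGF-beta signals, WT1 had 19.9 CPM, WT2 42.6, pKO1 34.9, pKO2 20.5, pInv 36.5, Ctrl 34.5 and KD 12.9. WT2, pInv, pKO1 and Ctrl read higher than pKO2, WT1 and KD, and the step from Ctrl to pKO2 was 1.68 (counting interval 1.15 to 2.47). This step too was picked after sorting, and it parts WT2 from WT1 and pKO1 from pKO2. Smad6 had 6 and 2 counts in WT, 5 and 9 in pKO, 2 in pInv, 2 in Ctrl and 9 in KD, which was 0.849 CPM in pInv at the lowest and 4.16 CPM in KD at the highest. All but pKO2, KD, WT1 and pKO1 were under the floor of 3 counts, so the order of the libraries in Smad6 carries little.

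All 5 tested genes had WT2 at one end of their order. Id1, Id3 and Msx1, 3 of 5, were lowest there, as were 27.6% of the 10265 tested features, and Id2 and Smad7, 2 of 5, were highest there, as were 24.7%. KD was the highest library for Id1, Id3 and Msx1, as for 20.1% of tested features, and the lowest for Smad7, as for 17%. Both libraries were singled out after their values were seen. WT2 also had the smallest total and the largest share of ribosomal RNA precursor, and the part of either in these levels was not tested. Beside these levels, nascent mesoderm markers (6 genes) summed to 35.4 CPM in WT2, 336 in KD and 97 to 181 in the other libraries. Most of the KD sum was Mesp1 (243 CPM, 10.8 in WT2), and Tbx6, Msgn1 and Snai1 had at most 15 counts in a library. Lef1 was not lowest in WT2 (23.4 CPM, against 18.6 in pKO1 and 17 in pInv). Extraembryonic ectoderm markers, the tissue that secretes BMP4 in the embryo, summed to 3.6 CPM in WT2 and 22.3 to 38.6 elsewhere, mostly Tfap2c outside WT2, with Elf5 and Tpbpa at 0 counts throughout. Haematovascular markers (6 genes) summed to 163 CPM in KD and 32.7 to 63.6 elsewhere. Kdr (120 CPM) and Lmo2 (17.1 CPM) stood out in KD, while Etv2 was even (20.8 to 25.8 CPM) and Tal1, Cdh5 and Pecam1 had 1 count each there. Extraembryonic endoderm markers (9 genes) summed to 62.3 CPM in KD and 31.4 to 43.9 elsewhere. Sox17 (11.1 CPM), Gata6 (14.3) and Dab2 (12.5) were highest in KD, but Amn (20.8) was not, and Sox7 and Ttr had 0 counts there. The epiblast sum was highest in WT2 (2610 CPM) and lowest in KD (1400 CPM), as was that of neuroectoderm (5 genes, 75.6 and 43.4 CPM). Most of the epiblast sum was Pou5f1 (2190 CPM in WT2, 1090 in KD), whereas Nanog (7.8 CPM) and Fgf5 (36 CPM) were lowest in WT2. Most of the neuroectoderm sum was Nes (70.8 CPM in WT2, 43.4 in KD), with Sox1 at 0 counts throughout. The part of these cell types in the levels of the BMP genes was not tested.

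KD was set beside Ctrl to ask what the knockdown of Meteor does to BMP-responsive genes. Both groups are single libraries with no replicate check, so they were compared by size and no p-value is given. The 6568 features averaging at least 10 CPM over the 5 libraries outside this pair were read, and a 2-fold ratio was called by size. Id1 was higher in KD, at 46.2 against 17.8 CPM, a ratio of 2.6 (exact 95% counting interval 1.75 to 3.94). Id3 was higher as well, at 21.7 against 5.58 CPM (3.89, 1.99 to 8.31). Across all genes read, 3.01% were called higher and 1.9% lower, and among the 5 members read, 2 were called higher and 1 lower.

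Smad7 was the member called lower, its ratio being 0.375 (0.232 to 0.59), from 34.5 CPM in Ctrl to 12.9 in KD. Id2 and Msx1 were not called, at ratios of 1.28 (0.811 to 2.05) and 1.23 (0.949 to 1.6), both with intervals that hold 1. Smad6, read from 9 counts (KD) and 2 counts (Ctrl), gave 4.09, with an interval of 0.847 to 38.9 that also holds 1. The comparison of Id3 leaned on a low Ctrl, since WT1 and pKO1 stood near KD, whereas Id1 in KD exceeded every other library. Smad7 in KD was below the other 6 libraries, though not beyond counting error below WT1 (WT1 to KD 1.54, 0.954 to 2.52). Libraries of the WT group also parted past 2-fold in the called members, WT1 to WT2 being 5.62 (Id1), 7.81 (Id3) and 0.466 (Smad7). Between the pKO libraries the ratios, pKO1 to pKO2, were nearer to even, at 0.817, 1.77 and 1.7. With single libraries, the KD to Ctrl ratios cannot be told apart from such spread.

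The library titled KD also held RNA of macrophage genes. Of 5 markers, 4 had more than 3 counts in KD, with Lyz2 at 175 CPM, Adgre1 at 28.6, Csf1r at 12.5 and Cd68 at 1.85, and the summed level was 218 CPM against 0.849 to 1.87 in the other libraries. Adgre1 and Csf1r had 0 counts in those 6 libraries, and Ptprc had 0 in KD. Cd68 did not set KD apart, with 4 counts there, 4 in pKO2 and 3 in pKO1. The part of this RNA in the values of Id1, Id3 and Smad7 was not tested.

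**Figure D2:**
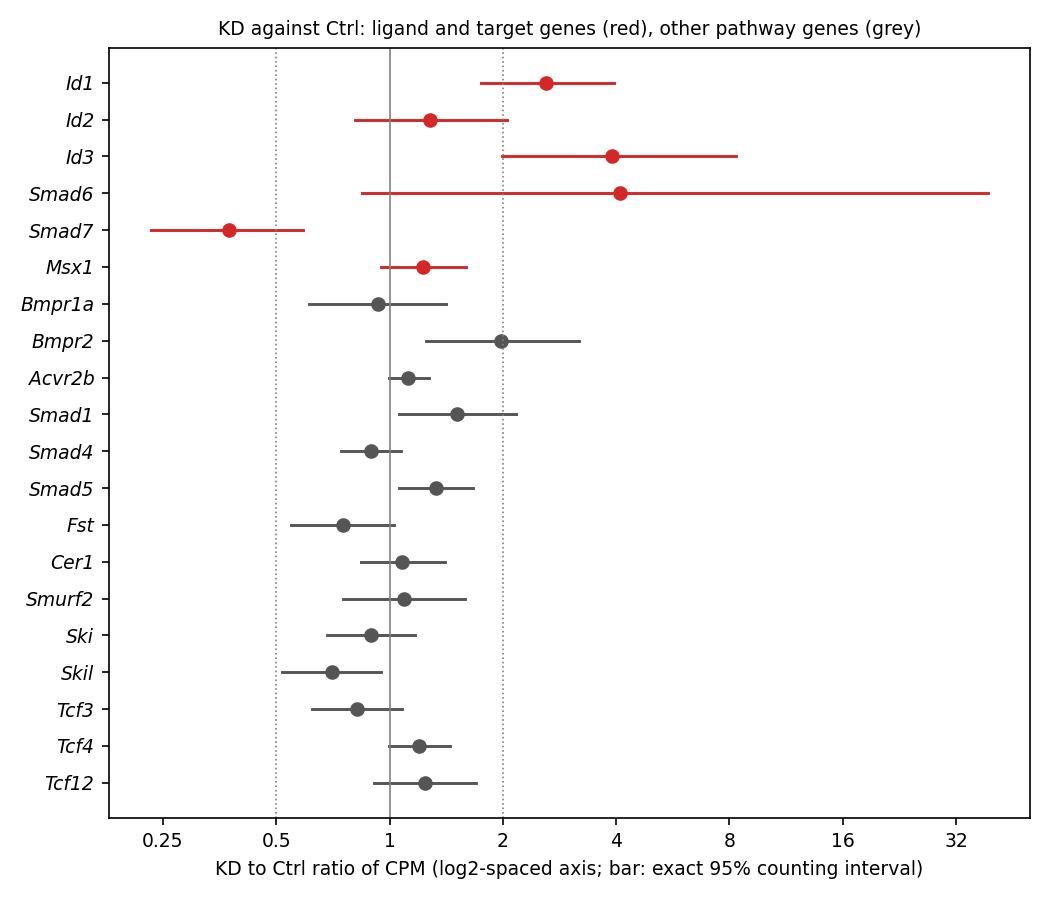
Ratio of CPM in KD to CPM in Ctrl (horizontal axis, spaced on a log2 scale) for the 6 genes of the set with counts in both libraries (red) and 14 other BMP pathway genes at 10 CPM or more (grey). Points are ratios of 1 library to 1 library, bars exact 95% counting intervals, dotted lines 2-fold; Id1 (2.6), Id3 (3.89) and Smad6 (4.09, interval holding 1) lie above the upper dotted line and Smad7 (0.375) below the lower one.

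Of the other 55 genes of the BMP lists, 14 were read in this pair, and 0 reached 2-fold in either direction, or 1, Bmpr2 at 2.15, when scaled by library totals in place of TMM. Their median log2 ratio was 0.12 and that of all genes read was -0.03. Bmpr2, the type II receptor, came closest, at 29.1 against 14.7 CPM (1.98, counting interval 1.25 to 3.18), and stood at 12 to 17.8 CPM in the libraries outside the pair. The signal-transducing genes Smad1 (1.51, 1.06 to 2.17) and Smad5 (1.33, 1.06 to 1.67) were higher in KD beyond counting error, and their partner Smad4 was not (0.891, 0.745 to 1.07). Libraries of the same group also differed beyond counting error, so such ratios cannot be told apart from the spread between libraries. Skil, a SMAD corepressor, was lower (0.702, 0.519 to 0.947). Of the listed genes below the level minimum, 3 had intervals that leave out 1, and they were picked after their values were seen. The share of all features below the minimum with such intervals is not given here, so nothing is read from that count. Tbx3, a T-box gene, had 14.3 against 5.08 CPM (2.82, 1.35 to 6.45), Hey1 had 11 counts in KD against 1 (10, 1.45 to 431), and Tbx20 had 7 counts against 0. Over all 7 libraries the antagonist gene Nog had 1 count.

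The comparison of pKO with WT asks whether loss of the Meteor promoter alters these genes. None of the 5 tested members passed, since edgeR's quasi-likelihood fit, with Benjamini-Hochberg correction over 10265 features, gave each of them an adjusted p of 1. The background was 0% called, since no feature passed. The 106 features with an unadjusted p under 0.05 included none of the members, nor did DESeq2 or limma call any feature. Uniform p-values would put more than 106 of the 10265 features under 0.05, so the test was cautious here. Lack of a call does not show that a gene was unchanged. Msx1 averaged 45.5 ± 16.3 CPM in pKO and 23.7 ± 8.9 CPM in WT (SD, n = 2 each), a log2 difference of 0.92 (SE 0.41, unadjusted p = 0.0544 in edgeR's test). Id1 averaged 17.5 ± 2.49 against 7.95 ± 7.84 CPM, a log2 difference of 1.05 (SE 0.62).

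In Id1 and Msx1 both pKO libraries stood above both WT libraries, 2 of the 5 tested genes, while 12% of all tested features did so and 12.9% had both below. Against WT1 alone, without WT2, both pKO libraries were higher for 3 of the 5, Smad7 being the addition, as for 29.2% of tested features; for Id1 and Msx1 this follows from the first count. The log2 difference of Id1 was 0.4 without WT2 and 2.84 without WT1, so its size turned on the WT library used. Those of Msx1 were 0.63 and 1.39. For Id2, Id3 and Smad7 the groups overlapped, with log2 differences of -0.52 (SE 0.44), 0.34 (SE 0.73) and -0.16 (SE 0.47).

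**Figure D3:**
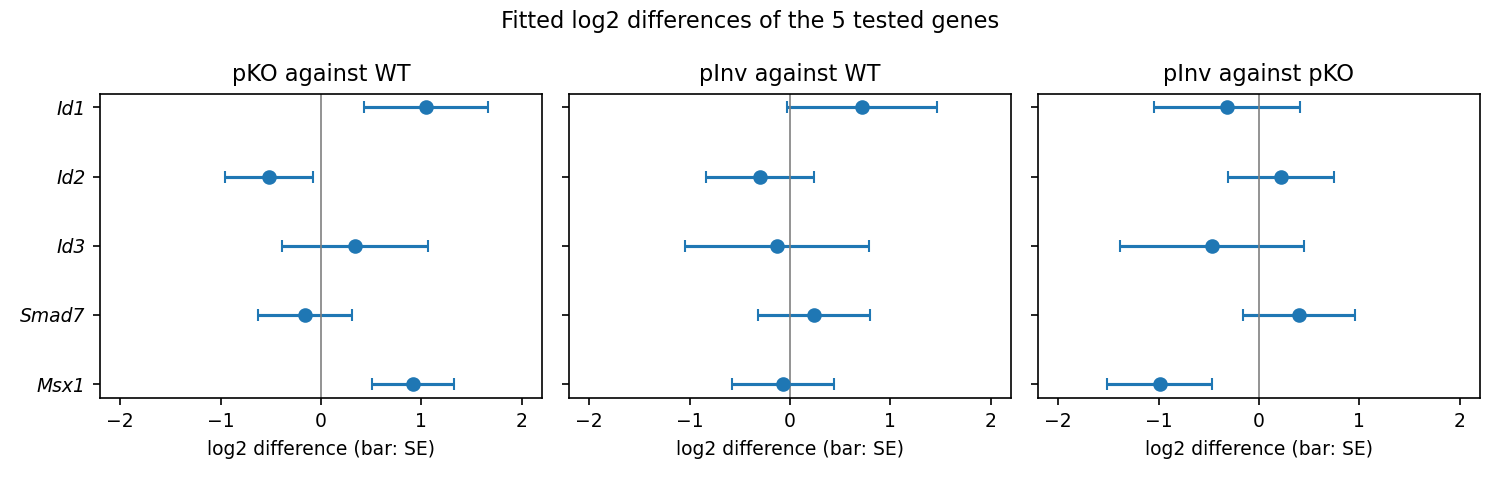
Log2 differences (horizontal axis) fitted by edgeR for the 5 tested genes in the 3 tested comparisons, with bars of 1 SE. None passed the threshold, and the comparisons share libraries, WT being in 2 of them and pKO in 2; the difference of Msx1 was 0.92 for pKO against WT and -0.99 for pInv against pKO.

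The comparisons of pInv with WT and with pKO ask the same of the inverted promoter. They share their WT and pKO libraries with the comparison above, and pInv, a single library, was assumed to vary like those groups. No member passed in either one (edgeR adjusted p of 1 for all 5, against a background of 0% called in each). At an unadjusted p under 0.05 there were 152 and 153 features, no member among them, and DESeq2 and limma called none. These counts too were below what uniform p-values would give, so lack of calls does not show lack of change. Msx1 stood at 22.9 CPM in pInv, between the WT libraries and below both pKO libraries, with a log2 difference of -0.07 (SE 0.51) from WT and -0.99 (SE 0.52, unadjusted p = 0.0928 in edgeR's test) from pKO. Id1, at 14 CPM, differed by 0.72 (SE 0.75) from WT and by -0.32 (SE 0.73) from pKO.

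Id2, at 17.8 CPM in pInv, differed by -0.3 (SE 0.54) from WT and by 0.22 (SE 0.53) from pKO. Id3, at 10.2 CPM, differed by -0.13 (SE 0.92) and -0.47 (SE 0.92), and Smad7, at 36.5 CPM, by 0.24 (SE 0.56) and 0.4 (SE 0.56). These standard errors are as large as most of the differences. Without WT1 the pInv to WT difference of Id3 was 2.06 and without WT2 it was -0.88, and that of Id1 was 2.51 and 0.05.

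Of the 55 other BMP genes, 25 were tested and 0 passed in any of the 3 comparisons (edgeR). For pKO against WT 15 had positive and 10 negative log2 differences, with a median of 0.12 against 0 over all tested features. For pInv against WT 10 were positive and 15 negative (median -0.11, all features -0.01), and for pInv against pKO 8 and 17 (median -0.22, all features 0). The genes with the smallest unadjusted p are named by rule, and for each the edgeR adjusted p was 1.

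Tbx3 stood at 3 and 0.6 CPM in WT, 6.21 and 6.57 in pKO and 1.27 in pInv, so that pKO lay 1.66 above WT on the log2 scale (SE 0.73) and pInv differed from pKO by -2.28 (SE 0.99). Cer1, a secreted antagonist of BMP, NODAL and WNT, stood at 58.8 and 5.4 CPM in WT, 57.8 and 98.9 in pKO and 13.6 in pInv, a log2 difference of -2.53 (SE 1.12) between pInv and pKO and of 1.24 (SE 0.79) between pKO and WT. Both were low in WT2 and pInv. Tcf12, an E protein bound by IDs, differed by 0.63 (SE 0.36) for pKO against WT. Rgmb, a BMP coreceptor, differed by 1.17 (SE 0.64) for pInv against pKO. For pInv against WT the rule named the ubiquitin ligase Smurf1 (-1.17, SE 0.77), the E protein Tcf3 (-0.61, SE 0.41) and Bmp7 (-1.16, SE 0.93).

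**Figure D4:**
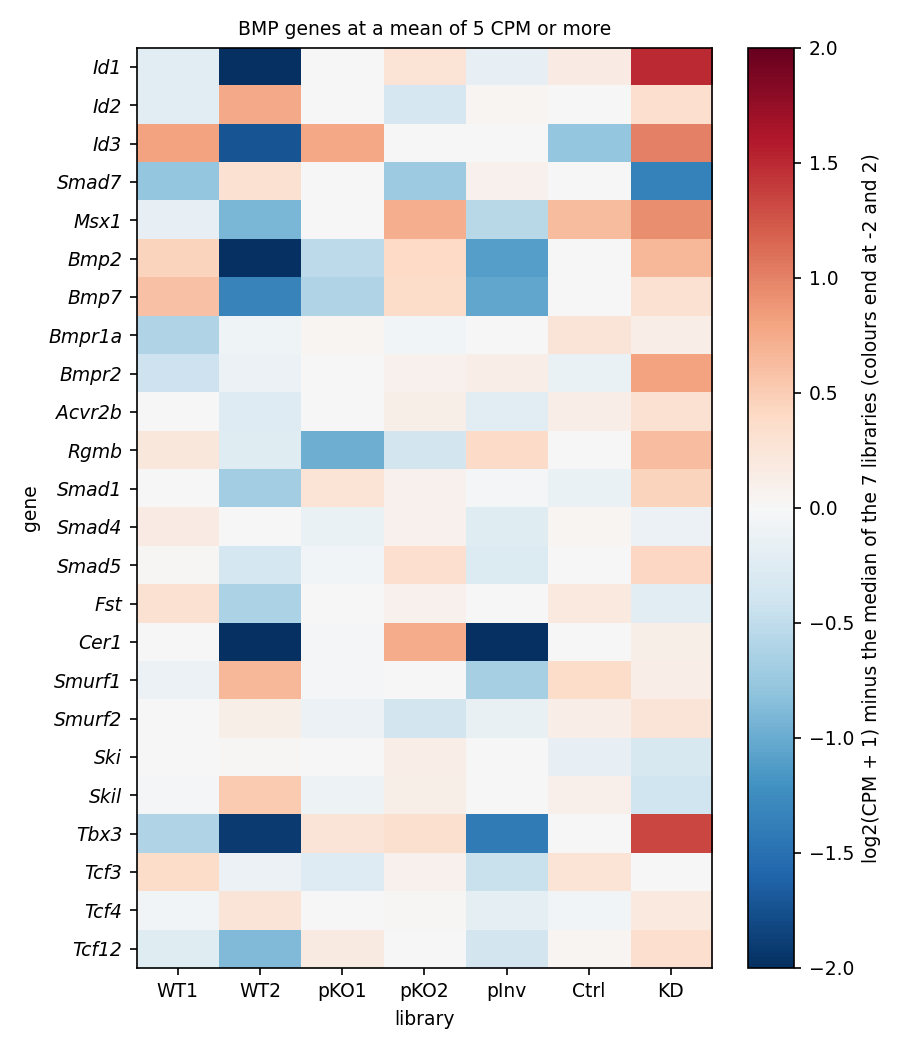
Level of BMP genes averaging at least 5 CPM (vertical) in the 7 libraries (horizontal), as log2(CPM + 1) minus the gene's median over the libraries; red is above and blue below the median, and colours end at -2 and 2. Id1 ran from -2.3 in WT2 to 1.49 in KD and Cer1 was at -3.22 in WT2 and -2.04 in pInv, whereas Ski, a SMAD corepressor, stayed between -0.32 and 0.13.

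The receptor genes Acvr2b, Bmpr1a and Bmpr2 and the core SMAD genes Smad1, Smad4 and Smad5 varied less than Id1, Id3, Msx1 and Smad7. The coreceptor genes Rgma (0.6 CPM in WT2 to 7.39 in KD) and Rgmb (2.87 in pKO1 to 10.6 in KD), read at low levels, varied more widely. The activin type II receptor Acvr2b, which BMPs also use, ran from 194 CPM in WT2 to 289 in KD, the type I receptor Bmpr1a from 13.1 in WT1 to 24.4 in Ctrl, and Smad4 from 104 in pInv to 139 in WT1. Acvr1 and Bmpr1b had at most 5 counts in a library. Among E proteins, the partners of IDs, Tcf4 ran from 91.7 to 124 CPM and Tcf12 from 19.2 in WT2 to 46.6 in KD. No receptor or SMAD gene spanned its libraries as widely as Id1 did in the plot of levels relative to the median.

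Genes with the most similar pattern were sought among single named genes averaging at least 20 CPM, by Pearson's r of log2(CPM + 1) over the 7 libraries, as a description. For Id1, among 4556 genes, these were Sox4 (r = 0.984), Amot (0.981) and Mesp1 (0.98). Mesp1, a factor of the earliest mesoderm, stood at 79.1 CPM in WT1, 10.8 in WT2 and 243 in KD. All 3 were lowest in WT2 and highest in KD, which choosing them by r with Id1 favours. Their r without WT2 was 0.938, 0.935 and 0.921. Spearman's rho, which uses ranks only, was 0.821, 0.786 and 0.714 over the 7 libraries. For Smad7, among 4555 genes, they were Dnajc21 (0.983), Prrg4 (0.973) and Zfp114 (0.963). All were highest in WT2 and lowest in KD, which the choice by r again favours. For Bmp4 the rule gave Acot13, Samd8 and Mtss1, and with 10 counts of Bmp4 in all nothing is read from it.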

How the data were processed

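Polyadenylated RNA was read with the Lexogen QuantSeq 3′ kit, per the labels' protocols. The authors deposited 1 table of RSEM estimates per library on build mm9, per the submitters' processing notes, with expected counts (not normalized), TPM and FPKM values per the file headers. The sources used here name no aligner, trimming or strand setting, so an overlapping neighbour cannot be told apart. Features of Id1, Id2 and Id3 were longer (2934, 3272 and 2953 bases) than the RefSeq genes (1160, 2294 and 1571), so reads beyond the annotated ends can count. The RefSeq lengths are genomic spans with introns included. For the other members, whose features were shorter than the span, this comparison cannot show whether the ends were extended. Fras1, on the chromosome of Msx1, is listed at 97015729 bases and took 0.87% to 1.15% of counts, and how reads were split between them is not known. The deposited TPM served in 1 alternative and the deposited FPKM in none.

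Expected counts were rounded. Gene numbers were named from a RefSeq table of GRCm38 (23447 single genes of 24990 features). edgeR 4.0.16 in R 4.3.3 fitted all 7 libraries with a coefficient per group, after filterByExpr (10265 features) and TMM scaling. The quasi-likelihood test had 2 residual degrees of freedom and a prior of 5.86, and the threshold was a Benjamini-Hochberg adjusted p of 0.05. KD and Ctrl were compared by size, with exact binomial 95% intervals and a floor of 3 counts. Alternatives used limma 3.58.1 and DESeq2 1.42.0. The steps were tested on simulated data, with a common dispersion for all genes and, for the intervals, counting error alone. The wider spread between real libraries was not simulated for the intervals. The rule for named genes took every member, the 3 smallest p among other BMP genes per comparison, the 5 largest ratios past 2-fold for KD against Ctrl (none reached it), and the 3 genes most like Bmp4, Id1 and Smad7. Members, lists and rules were chosen with earlier results of these data known.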

Additional observations from a re-analysis of the deposited data

How the results depend on the processing

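With groups from the genotype field, directions turned for most members and none passed: for pKO against WT the log2 differences were -0.97 (Id1), 0.48 (Id2), 0.11 (Smad7) and -0.74 (Msx1), for pInv against WT -0.08 (Id1), 0.13 (Id2) and 0.83 (Id3), with 7 features called, and for pInv against pKO 0.89 (Id1), -0.35 (Id2), 0.7 (Id3) and 0.5 (Msx1). The titles and the field put different libraries in each group. Leaving out 1 WT or pKO library at a time, which where 1 library is left assumes that it varies like the other groups, the pKO to WT differences ran from -0.97 to 0.09 (Id2), -0.39 to 2.53 (Id3) and -0.63 to 0.49 (Smad7), and the pInv to WT differences from -0.75 to 0.28 (Id2), -0.88 to 2.06 (Id3), -0.22 to 0.87 (Smad7) and -0.39 to 0.39 (Msx1). The count of called features then ran from 0 to 7 for pKO against WT (4 without pKO1, 7 without pKO2) and from 0 to 7 for pInv against pKO (2 and 7), with no member among them.

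The pInv to WT difference of Id3 was 0.27 by limma-voom and 0.47 by limma on log2(TPM + 1), and the cause was not tested. Without a low-count filter 9, 6 and 8 features passed for pKO against WT, pInv against WT and pInv against pKO, no member among them. For KD against Ctrl, 198 genes were 2-fold higher and 125 lower; with library totals in place of TMM these were 293 and 83, as the median of all genes moved from -0.03 to 0.09, and with a minimum of 20 CPM in either library 205 and 64. Id1, Id3 and Smad7 stayed past 2-fold under every KD alternative run. Differences between same-group libraries (WT1 less WT2, pKO1 less pKO2) had r = 0.308 over genes, but no label says that the numbers pair libraries; with the replicate block 0 features passed (224 at an unadjusted p under 0.05). Depth limits Bmp4, Smad6 and Msx2 most.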
